A study of Mus musculus with 18 samples.

Results

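Spleens of ICR mice on a high-fat diet were compared by RNA sequencing between animals that had received a faecal microbiota transplantation (FMT) of either kind and animals that had received none. The comparison used 12 of the 18 libraries of the series, chosen by their treatment labels alone, with 3 libraries in each of 4 groups of mice aged 10 weeks. All 4 groups were fed the high-fat diet (HFD). The groups without FMT had the diet alone (HFD) or the diet with AOS, read here as alginate oligosaccharide, at 10 mg/kg (HFD+AOS). The groups with FMT were labelled high-fat diet with control-FMT (HFD+control-FMT) and high-fat diet with AOS at 10 mg/kg and FMT (HFD+AOS-FMT). The latter label does not say whether the recipient or the donor of the transplant was dosed, so HFD+AOS-FMT is described here only as the FMT group with AOS. Each FMT group was set against the group without FMT of the same AOS label. The FMT effect is the mean of those 2 differences. If only the donor was dosed, HFD+AOS-FMT and HFD+AOS also differ in direct dosing. The stratum with AOS, the FMT effect and the interaction would then not separate FMT from that dosing. The comparison of AOS exposure would then mix dosed recipients with recipients of dosed donors. The comparison asked how a spleen exposed to the diet differs with FMT. No group received a sham transfer, so the transplant cannot be told apart from the handling that goes with it. The labels name no cage, day, sex or separate animal for the libraries. The p-values therefore measure the spread between these libraries.

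The spleen filters blood in its red pulp and houses lymphocytes in its white pulp, so its RNA mixes erythroid cells, macrophages, B and T cells and natural killer (NK) cells. Type I interferons act through a receptor on nearly all of these cells and switch on a shared set of genes through a transcription factor complex that binds a DNA motif called the interferon-stimulated response element. Signals from gut bacteria are known to sustain a low resting level of this programme in immune cells outside the gut. The same signals help to prime NK cells.

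Expression was given per gene in FPKM, a scale corrected for gene length and library size. The 12 libraries summed to between 627084 and 763768 FPKM and held between 12221 and 12565 genes at 1 FPKM or above. Summed markers of B cells lay between 2462 and 3789 FPKM and those of T cells between 537 and 828 FPKM, so markers of both lymphocyte types of the spleen were present. Haemoglobin genes took 10.8% to 28.1% of the summed FPKM. That share was 20.9% ± 4.07 (SD, n = 6) with FMT and 18.3% ± 8.03 (SD, n = 6) without, a difference of 2.55 percentage points with an exact two-sided permutation p of 0.48. Digestive enzyme transcripts of the exocrine pancreas, an organ next to the spleen, summed to between 67.4 and 9824 FPKM with FMT and between 145 and 20620 FPKM without. The median FMT difference of the 17 tested pancreas genes was -1.40 in log2(FPKM + 1), with 17 below 0, and that of 13 heat shock genes was 0.71, with 13 above 0. The pancreas median was 0.19 in HFD+control-FMT against HFD, with 14 genes above 0 and 3 below. In HFD+AOS-FMT against HFD+AOS it was -2.95, with 17 below 0. No gene of either list passed the limma test of FMT. The part of either in the results was not tested.

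FMT went with lower expression of antiviral, interferon-stimulated genes. Of 12781 genes tested with limma on log2(FPKM + 1), 33 passed a Benjamini-Hochberg adjusted p of 0.05, which is 0.258% of the genes. Of these, 31 were lower with FMT (0.243% of the genes) and 2 were higher (0.0156%). The largest falls were in members of the Ifit and Oas families, whose proteins bind or sense foreign RNA, in the receptor chaperone Rtp4 and in the interferon regulator Irf7, and the killer-cell protease Gzmb was also among them. The 33 genes changed in the same direction in both AOS strata, and 32 of them by more in the stratum with AOS. All differences below are in log2(FPKM + 1), which understates the change of low genes, and are FMT minus no FMT unless stated. In whole spleen, fewer cells of a type and less RNA per cell cannot be told apart.

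These calls rest on how the spread was estimated. No gene passed in limma fits of all 18 libraries, of FMT and AOS without an interaction, or of FMT alone, where 1316, 1315 and 1191 genes had an unadjusted p under 0.05 against 1515 here. With 3 libraries in every group those fits give the same FMT differences and change only the estimated spread, and the lowest adjusted p of any gene was 0.123, 0.0965 and 0.0794. With 1 library left out at a time, between 4 and 60 genes passed. Ifit3, Ifit3b, Oasl2 and Slfn5 passed in all 12 such fits, while Tnfsf9 passed in 9, Irf7 in 4, Gzmb in 3 and Rnf11 in 3. Oas2 passed in 8, Rtp4 in 7, Ifit1 in 6 and Xaf1 in 4.

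Ifit3, an RNA-binding antiviral protein, stood at 22.2, 15.2 and 22.3 FPKM on HFD, 58.9, 30.7 and 39.2 FPKM on HFD+AOS, 15.3, 12.4 and 12.5 FPKM on HFD+control-FMT and 8.46, 7.36 and 7.30 FPKM on HFD+AOS-FMT. All 3 HFD+AOS libraries were above every other library, all 3 HFD+AOS-FMT libraries were below every other, and 1 HFD+control-FMT library lay just above the lowest HFD library. Its mean was 10.6 ± 3.32 FPKM (SD, n = 6) with FMT and 31.4 ± 15.8 FPKM (SD, n = 6) without, a difference of -1.40 (SE 0.149, limma adjusted p = 0.00436). The neighbouring Ifit3b, a near copy of Ifit3, had the same pattern at a lower level, from 1.08 through a median of 1.98 to 3.88 FPKM with FMT and from 4.45 through 6.99 to 12.7 FPKM without. Its sides did not overlap, and its difference of -1.47 (SE 0.13) had a limma adjusted p of 0.000838. Ifit1, the cap-sensing member of the family, differed by -1.11 (limma adjusted p = 0.0226), from 2.45 through 3.11 to 5.30 FPKM with FMT and from 5.26 through 8.04 to 18.1 FPKM without. The highest FMT library thus just passed the lowest library without FMT. Reads may be shared between Ifit3 and Ifit3b, so their separate levels are uncertain. The 3 genes lie together on chromosome 19 of GRCm38, Ifit3 at 34583531 to 34588731, Ifit3b at 34607970 to 34613401 and Ifit1 at 34640871 to 34650009, all on the plus strand.

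The 250 bases upstream of the RefSeq start (GRCm38.p6, plus strand, 5′ to 3′) are shown for these 3 neighbours, for Ddx60, whose matches lie on the printed strand, and for Oasl2, which fell as clearly and has no match. Capitals mark matches to GAAA, any pair of bases and a further GAAA, a core of the interferon-stimulated response element searched on both strands, which appear as the complement in the Ifit genes.
Ifit1 (chr19:34640639-34640888): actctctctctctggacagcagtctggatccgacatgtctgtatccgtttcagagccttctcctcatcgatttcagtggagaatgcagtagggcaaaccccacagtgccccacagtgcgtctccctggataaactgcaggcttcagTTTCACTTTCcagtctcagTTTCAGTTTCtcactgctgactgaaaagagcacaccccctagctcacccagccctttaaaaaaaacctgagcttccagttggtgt
Ifit3 (chr19:34583279-34583528): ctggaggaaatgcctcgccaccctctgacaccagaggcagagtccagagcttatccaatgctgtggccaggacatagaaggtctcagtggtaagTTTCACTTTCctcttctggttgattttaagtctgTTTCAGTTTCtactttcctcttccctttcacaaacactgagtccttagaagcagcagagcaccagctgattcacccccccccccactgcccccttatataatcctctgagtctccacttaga
Ifit3b (chr19:34607707-34607956): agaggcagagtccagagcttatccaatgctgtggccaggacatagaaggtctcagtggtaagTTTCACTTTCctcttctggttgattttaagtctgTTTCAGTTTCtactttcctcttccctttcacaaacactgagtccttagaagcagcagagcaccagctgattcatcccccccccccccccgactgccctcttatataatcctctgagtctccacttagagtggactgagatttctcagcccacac
Ddx60 (chr8:61927837-61928086): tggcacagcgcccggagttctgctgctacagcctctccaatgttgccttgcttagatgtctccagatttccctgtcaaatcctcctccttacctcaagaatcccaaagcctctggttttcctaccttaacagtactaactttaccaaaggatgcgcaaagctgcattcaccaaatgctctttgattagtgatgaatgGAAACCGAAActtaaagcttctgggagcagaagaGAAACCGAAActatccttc
Oasl2 (chr5:114896684-114896933): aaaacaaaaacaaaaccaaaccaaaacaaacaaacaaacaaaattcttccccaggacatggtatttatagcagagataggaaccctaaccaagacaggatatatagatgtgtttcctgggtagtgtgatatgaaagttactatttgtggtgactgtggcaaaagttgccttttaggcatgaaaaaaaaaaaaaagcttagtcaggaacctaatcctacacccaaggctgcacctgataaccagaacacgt
In the windows from 250 bases before to 50 bases after the start, 11 of the 27 genes lower with FMT that have a RefSeq window held this core (40.7%), against 410 of 10043 tested genes with a window (4.08%) and 1079 of all 27025 genes (3.99%). The windows of Ifit3 and Ifit3b share a run of 169 of their 300 bases that holds their matches, which are thus copies and not separate cases. Those of Ifi206 and Ifi213 share a run of 135 bases that ends before their match. The match reads the same in both, and they are not taken as separate cases either. The longest run shared by any of the other pairs of these 11 genes was 13 bases. The 11 genes include Oas1g, which passed the 1 FPKM filter only through the groups without FMT. A match describes these letters and shows no binding.

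Among genes of the oligoadenylate synthetase family, known for triggering the degradation of viral RNA, Oasl2, Oas2 and Oas1g fell. Oasl2 was at 20.4, 21.8 and 21.5 FPKM on HFD, 40.5, 24.6 and 26.4 FPKM on HFD+AOS, 14.1, 12.6 and 13.8 FPKM on HFD+control-FMT and 8.78, 9.22 and 9.69 FPKM on HFD+AOS-FMT. The 4 groups did not overlap, and both FMT groups lay below both groups without FMT. The means were 11.4 ± 2.42 FPKM (SD, n = 6) with FMT and 25.9 ± 7.50 FPKM (SD, n = 6) without, a difference of -1.10 (SE 0.1, limma adjusted p = 0.000838). Oas2 differed by -1.16 (limma adjusted p = 0.0172) with no overlap, at 5.66 to 10.4 FPKM with FMT and 14.5 to 29.2 FPKM without. Oas1g, at no more than 4.54 FPKM, differed by -0.97 (limma adjusted p = 0.0128), and its close copy Oas1a fell just outside the threshold at -0.85 (limma adjusted p = 0.0519). Oas1g averaged 0.963 FPKM on HFD+control-FMT and 0.6 FPKM on HFD+AOS-FMT, against 1.92 FPKM on HFD and 3.25 FPKM on HFD+AOS. It thus passed the 1 FPKM filter only through the groups without FMT, where it was high, and its call adds no support. Reads of these Oas1 copies could be split between them.

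Irf7, the transcription factor that amplifies interferon production, was at 53.5, 52.9 and 64.8 FPKM on HFD, 215.0, 95.7 and 108 FPKM on HFD+AOS, 55.5, 44.4 and 41.1 FPKM on HFD+control-FMT and 33.1, 25.9 and 34.1 FPKM on HFD+AOS-FMT. HFD+control-FMT overlapped HFD, while the groups with AOS were far apart. Its difference was -1.16 (SE 0.183, limma adjusted p = 0.0403). Rtp4, an interferon-induced chaperone of receptors, differed by -1.17 (limma adjusted p = 0.0172) at 9.88 to 22.9 FPKM with FMT and 23.2 to 61.7 FPKM without. Xaf1, an interferon-induced promoter of apoptosis, differed by -0.98 (limma adjusted p = 0.0335), but its lowest library without FMT, at 20.6 FPKM, lay within the FMT range of 13.1 to 27.5 FPKM.

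Several genes linked to the sensing of foreign nucleic acid also fell. Dhx58 and Ddx58, the helicases LGP2 and RIG-I that detect viral RNA, differed by -0.72 and -0.36, and Ddx60, a related helicase, by -0.56. Dhx58 was the last gene inside the threshold, with a limma adjusted p of 0.0496. Ifi206, Ifi207 and Ifi213, neighbours on chromosome 1 from the Ifi200 family that holds DNA sensors, differed by -0.88, -0.67 and -0.67. Adar, which edits double-stranded RNA, Pml and Daxx, 2 partners in nuclear bodies, and Parp12, an antiviral ADP-ribosyltransferase, fell by 0.35, 0.32, 0.37 and 0.46. Pml gave -0.08 without AOS and -0.55 with AOS. The sides overlapped for Dhx58, Ifi213, Pml and Parp12. With 1 library left out at a time, Ddx60, Ifi206 and Daxx passed in 10 of 12 fits and Parp12 in 5. Pml passed in 4, Dhx58, Ifi207 and Ifi213 in 3, Adar in 2 and Ddx58 in 1.

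Slfn5, an interferon-induced member of the Schlafen family, was at 16.7, 16.3 and 17.5 FPKM on HFD, 19.8, 16.9 and 19.9 FPKM on HFD+AOS, 14.1, 12.2 and 13.8 FPKM on HFD+control-FMT and 10.6, 11.03 and 10.3 FPKM on HFD+AOS-FMT. Its libraries were among the tightest of the called genes, and no FMT library reached the level of one without FMT. The difference was -0.54 (SE 0.0565, limma adjusted p = 0.00265). Hcar2, the receptor for butyrate and niacin, was the 1 called gene among 7 tested receptors for microbial metabolites, while 0.243% of all genes tested were called lower. Its difference was -0.53 (limma adjusted p = 0.0435), and the median of those 7 was -0.03. Hcar2 passed in 1 of the 12 fits with a library left out.

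Gzmb and a few NK receptors also fell. Gzmb, the protease granzyme B of cytotoxic granules, was at 2.63, 4.22 and 6.79 FPKM on HFD, 3.82, 5.92 and 5.06 FPKM on HFD+AOS, 1.98, 2.44 and 2.02 FPKM on HFD+control-FMT and 1.81, 1.61 and 1.79 FPKM on HFD+AOS-FMT. The FMT libraries were all lower and closer together, at 1.94 ± 0.285 FPKM (SD, n = 6) against 4.74 ± 1.501 FPKM (SD, n = 6). The difference was -0.93 (SE 0.158, limma adjusted p = 0.0435), with -0.75 in the stratum without AOS and -1.10 in the stratum with AOS. The NK receptor Klrc3, a member of the NKG2 family, differed by -0.83 (limma adjusted p = 0.025) at 1.43 to 2.37 FPKM with FMT and 3.02 to 5.22 FPKM without. Klra7, a Ly49 receptor for class I molecules, differed by -0.82 (limma adjusted p = 0.0435) at 3.39 to 4.93 FPKM with FMT and 5.82 to 12.3 FPKM without. Neither receptor overlapped between the sides, but Klra genes are close copies and their reads could be shared. With 1 library left out at a time, Klrc3 passed in 7 of 12 fits and Klra7 in 3.

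Gzmb was the only called gene among the 16 NK and cytotoxic genes tested, while 0.243% of all genes tested were called lower. None of the 16 was above 0, with a median of -0.33 against -0.02 over all genes tested. Nkg7, a granule protein, and Ncr1, the activating receptor NKp46, gave -0.34 and -0.84 with limma adjusted p = 0.052 for each. The sides did not overlap for Nkg7, and for Ncr1 the highest FMT library, at 7.38 FPKM, just passed the lowest without FMT, at 7.20 FPKM. Perforin, Prf1, gave -0.19 (limma adjusted p = 0.597), and was picked out after its value was seen.

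Only 2 genes rose. Tnfsf9, the 4-1BB ligand that costimulates T cells and NK cells, was at 3.40, 6.37 and 7.98 FPKM on HFD, 1.99, 2.45 and 3.96 FPKM on HFD+AOS, 9.82, 12.5 and 10.4 FPKM on HFD+control-FMT and 13.5, 14.5 and 9.80 FPKM on HFD+AOS-FMT. Every FMT library was above every library without FMT, at 11.8 ± 2.04 FPKM (SD, n = 6) against 4.36 ± 2.34 FPKM (SD, n = 6). The difference was 1.35 (SE 0.184, limma adjusted p = 0.0172). Rnf11, a small ubiquitin ligase adaptor, rose by 0.34 (limma adjusted p = 0.0422), and its sides overlapped because HFD+control-FMT was near the groups without FMT.

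**Figure D1:**
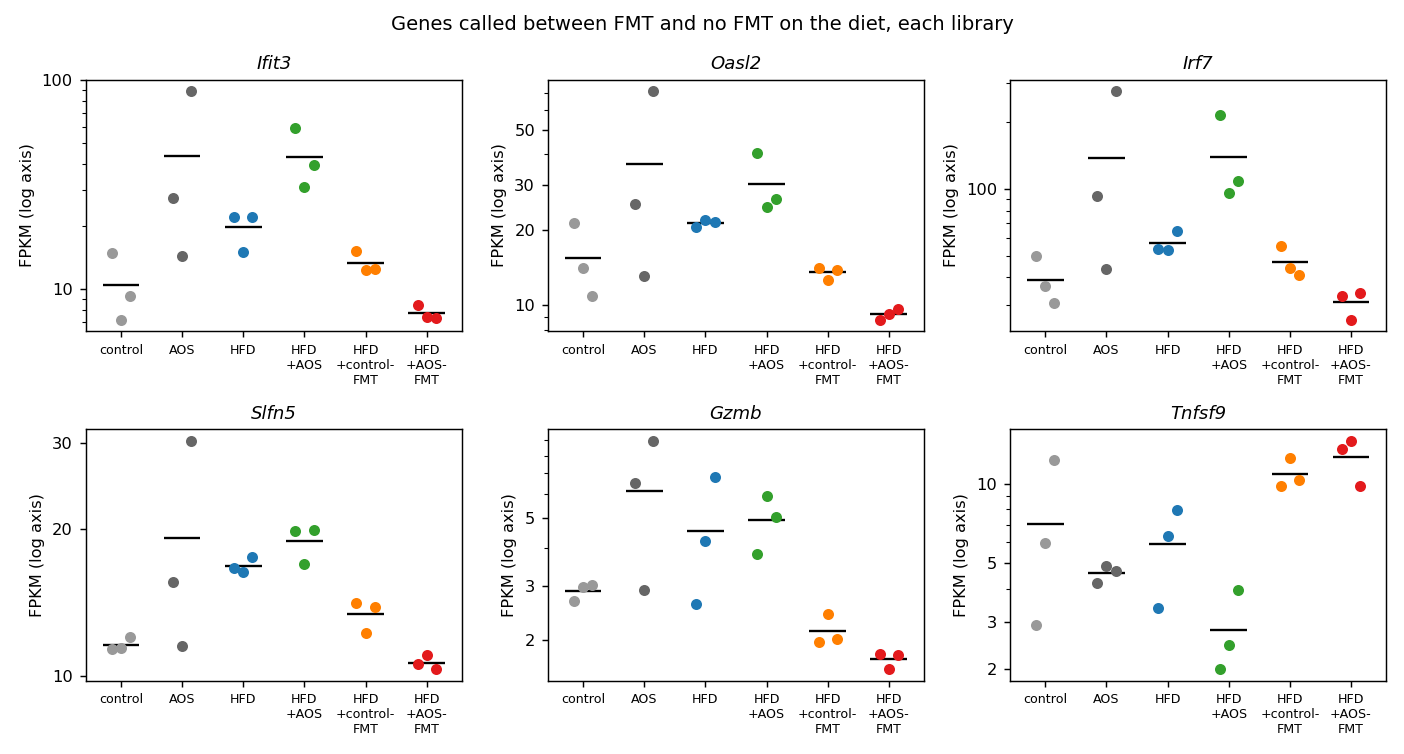
Expression in FPKM on a log axis of 6 genes called for FMT, 1 point per library in each of 6 groups, with a bar at the group mean; the groups without the diet are shown for reference only. Oasl2, Slfn5 and Gzmb lie lower and Tnfsf9 higher in all 6 FMT libraries than in all 6 diet libraries without FMT, while Ifit3 and Irf7 overlap between HFD and HFD+control-FMT.

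Libraries of the 2 sides did not overlap for 20 of the 33 called genes, against 95 of all 12781 genes (0.743%), of which 76 (0.595%) were below and 19 (0.149%) above. Calls and absence of overlap come from the same libraries, so the first count describes the calls and adds no support. The called genes were spread over 13 chromosomes, and 8 of the 33 lay within 500 kb of another called gene.

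A list of 25 type I interferon targets summarises the falls. Of the 23 that were tested none had a difference above 0, and 10 fell, against 0.243% of all genes. The median was -0.78, against -0.02 over all genes. Usp18, which shuts down the interferon receptor, and Isg15, a ubiquitin-like antiviral protein, gave -0.76 and -0.78 with limma adjusted p of 0.055 and 0.325. The mean log2(FPKM + 1) of the list was 4.42 to 4.66 on HFD, 4.85 to 5.56 on HFD+AOS, 4.04 to 4.37 on HFD+control-FMT and 3.70 to 3.94 on HFD+AOS-FMT. The 4 groups did not overlap and ran from HFD+AOS through HFD and HFD+control-FMT down to HFD+AOS-FMT. The 3 control libraries without the diet, at 3.995 to 4.40, covered the range of HFD+control-FMT. The 3 libraries of the group given AOS without the diet were at 4.82, 4.09 and 5.97, which spans the range of the 6 diet libraries without FMT, and the third of them was the highest of all 18. With each library left out in turn, the median stayed between -0.93 and -0.63. The number of members called was between 3 and 12, and 0 in the 3 other fits named above.

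**Figure D2:**
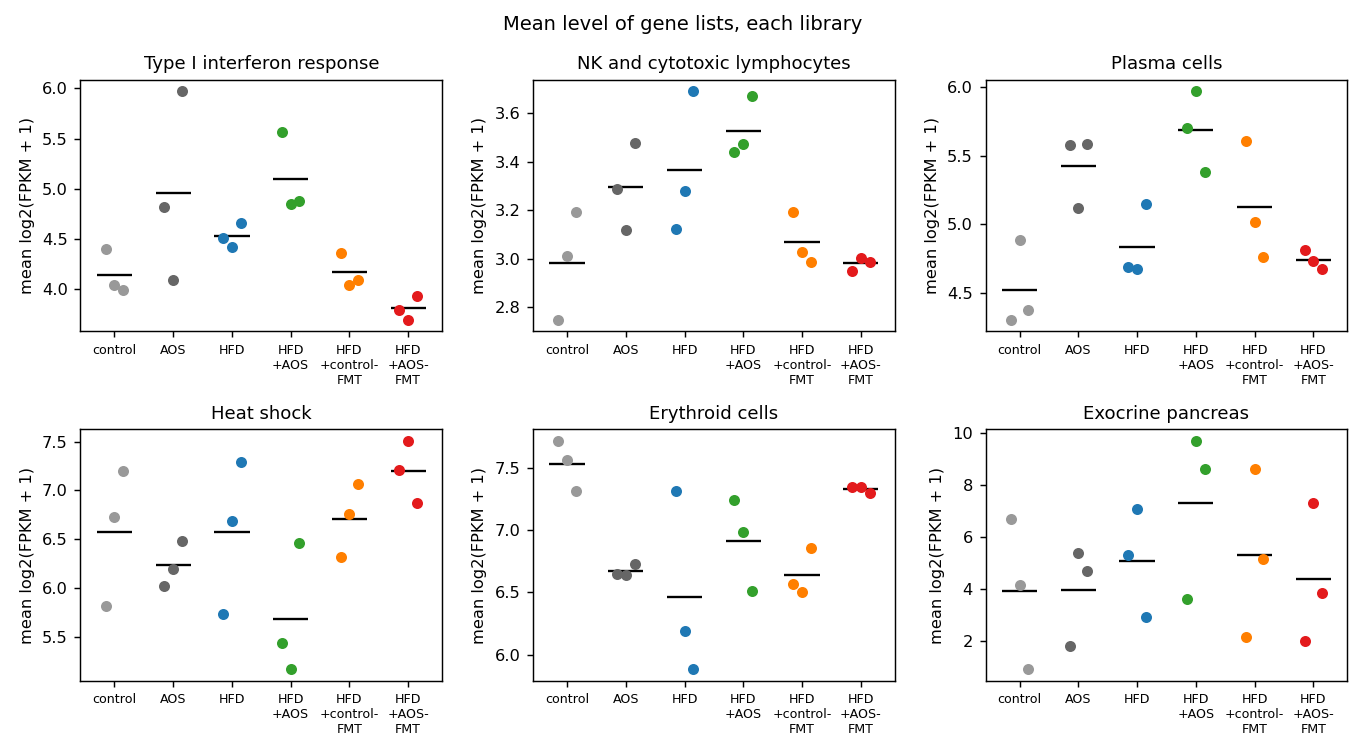
Mean log2(FPKM + 1) of 6 gene lists in each library of the 6 groups, 1 point per library. The type I interferon list lies below 4.42 in all 6 FMT libraries, the plasma cell list reaches its highest value, 5.97, in HFD+AOS and the exocrine pancreas list scatters within groups.

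Other immune lists differed less. Interferon gamma targets, 21 of 22 tested, had a median of -0.20 with none called. The 17 genes of red pulp macrophages and iron recycling had a median of -0.28 with none called. Spic, the factor that specifies these iron-recycling macrophages, gave -0.54 (limma adjusted p = 0.052). The 7 marginal zone macrophage genes had a median of -0.57 with none called, including Siglec1 and Cd5l at -0.75 and -0.72. They did not all fall, as Cd209d of the same list gave 0.32. Of 24 Toll-like receptor and adaptor genes none was called, and Tlr7, the endosomal receptor for single-stranded RNA, gave -0.56 (limma adjusted p = 0.052). Medians were -0.01 for 14 B-cell genes, 0.12 for 15 T-cell genes, 0.25 for 23 erythroid genes and 0.23 for 12 neutrophil granule genes, with none called in these lists.

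The FMT comparison was also made within each AOS stratum, from the same 12 libraries. Without AOS, 2 genes were called, both higher (0.0156% of the genes), and 699 had an unadjusted p under 0.05. They were Dbp and Tmsb15b1, and Tmsb15b1 averaged 1 FPKM or more only on HFD+control-FMT. With AOS, 183 genes were called (1.43%), of which 33 were higher (0.258%) and 150 lower (1.17%). The count without AOS lay between 0 and 6 and that with AOS between 30 and 317 when 1 library was left out. The type I interferon list gave medians of -0.34 without AOS, with no member called, and -1.17 with AOS, with 18 members lower. Ifit3 gave -0.52 in HFD+control-FMT against HFD and -2.29 in HFD+AOS-FMT against HFD+AOS. No member of the list passed limma's test of the interaction itself, whose closest was Ifit3b at -1.49 (adjusted p = 0.0936), so a difference between the strata was not shown for this list. The HFD+AOS libraries, which had the highest levels of the list, are the reference of the second stratum.

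**Figure D3:**
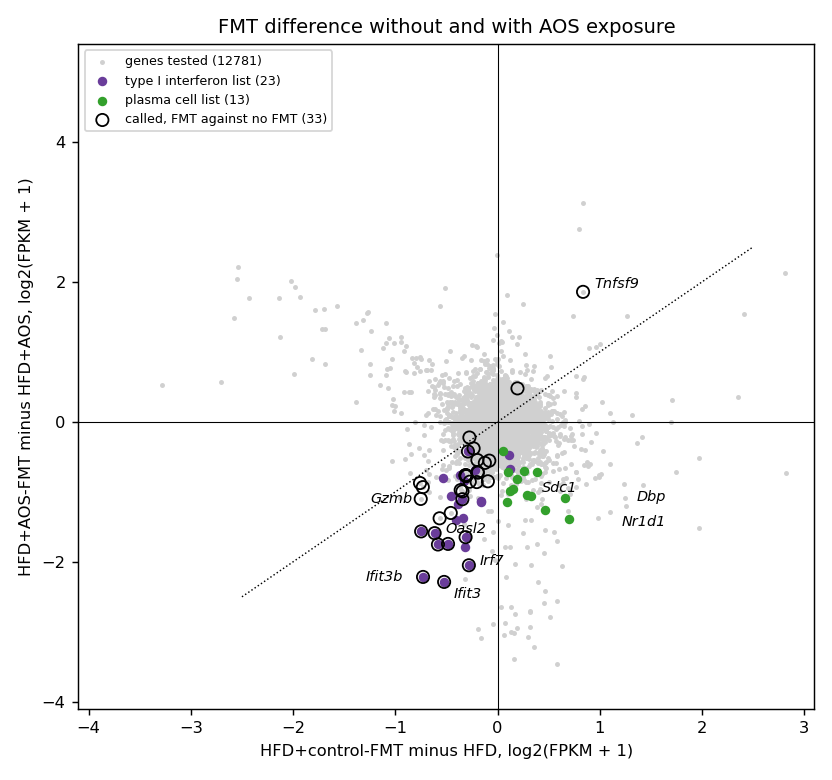
Difference in log2(FPKM + 1) of HFD+control-FMT minus HFD (horizontal) against HFD+AOS-FMT minus HFD+AOS (vertical) for 12781 genes, with the type I interferon list in purple, the plasma cell list in green, the 33 called genes circled and a dotted line of equality. Most purple points lie below the line in the lower left, while the 13 plasma cell genes lie right of 0 and mostly well below 0.

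In the stratum with AOS 5 of 13 plasma cell genes fell, against 1.17% of all genes tested. These were the survival receptor Tnfrsf17 (BCMA, -1.15), the surface proteoglycan Sdc1 (CD138, -1.06), the differentiation factor Prdm1 (Blimp-1, -0.99), the disulphide isomerase Txndc5 (-0.82) and the receptor Slamf7 (-0.70), with limma adjusted p of 0.0402, 0.0307, 0.0247, 0.0165 and 0.0228. Sdc1 was at 11.7, 13.9 and 9.54 FPKM on HFD+AOS and 4.83, 5.42 and 4.88 FPKM on HFD+AOS-FMT, against 4.63, 4.31 and 6.28 FPKM on HFD and 9.71, 5.95 and 4.78 FPKM on HFD+control-FMT. HFD+AOS was the group set apart for Sdc1, except that 1 HFD+control-FMT library reached its lower end. Without AOS all 13 genes were above 0, with a median of 0.26 and none called, against a median of -0.99 with AOS. No plasma cell gene passed the interaction test, where Txndc5 and Slamf7 came closest at -1.02 and -0.96 (limma adjusted p = 0.0936 for each). The exocrine pancreas list lay lower in the same stratum, with a median of -2.95 and 17 of 17 tested genes below 0, none of them called, and its part in the plasma cell result was not tested. The 5 calls became 0 without the second HFD+AOS library or the first or second HFD+AOS-FMT library, 1 without the third HFD+AOS-FMT library, 2 without the first HFD+AOS library, 3 without the second HFD+control-FMT library and 9 without the first.

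Chaperones were among the rises with AOS. Dnaja4, an Hsp40 co-chaperone, rose by 1.12 (limma adjusted p = 0.0303) and Ahsa1, an activator of Hsp90, by 0.90 (limma adjusted p = 0.0449). Of the 13 heat shock genes Cryab, a small heat shock protein, was called, at 0.48 (limma adjusted p = 0.0418). Over all genes tested, 0.258% were called higher in this stratum. The median of that list was 1.34 with AOS and 0.00 without. Hspa1b, the inducible Hsp70, was at 6.09, 2.48 and 74.4 FPKM on HFD+AOS and 124, 170.2 and 56.8 FPKM on HFD+AOS-FMT, so the third HFD+AOS library stood with the FMT group and the gene did not pass (3.12, limma adjusted p = 0.261). Hspa1b was picked out after its values were seen. Cirbp, an RNA-binding protein induced by cold, fell by 1.04 (limma adjusted p = 0.0349) in the same stratum, from 66.7, 63.6 and 52.5 FPKM to 28.3, 26.9 and 32.2 FPKM. With 1 library left out at a time, Dnaja4 passed in 7 of 12 fits, Cryab and Cirbp in 5 and Ahsa1 in 4. Body temperature and the time from death to freezing are not in the labels.

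**Figure D4:**
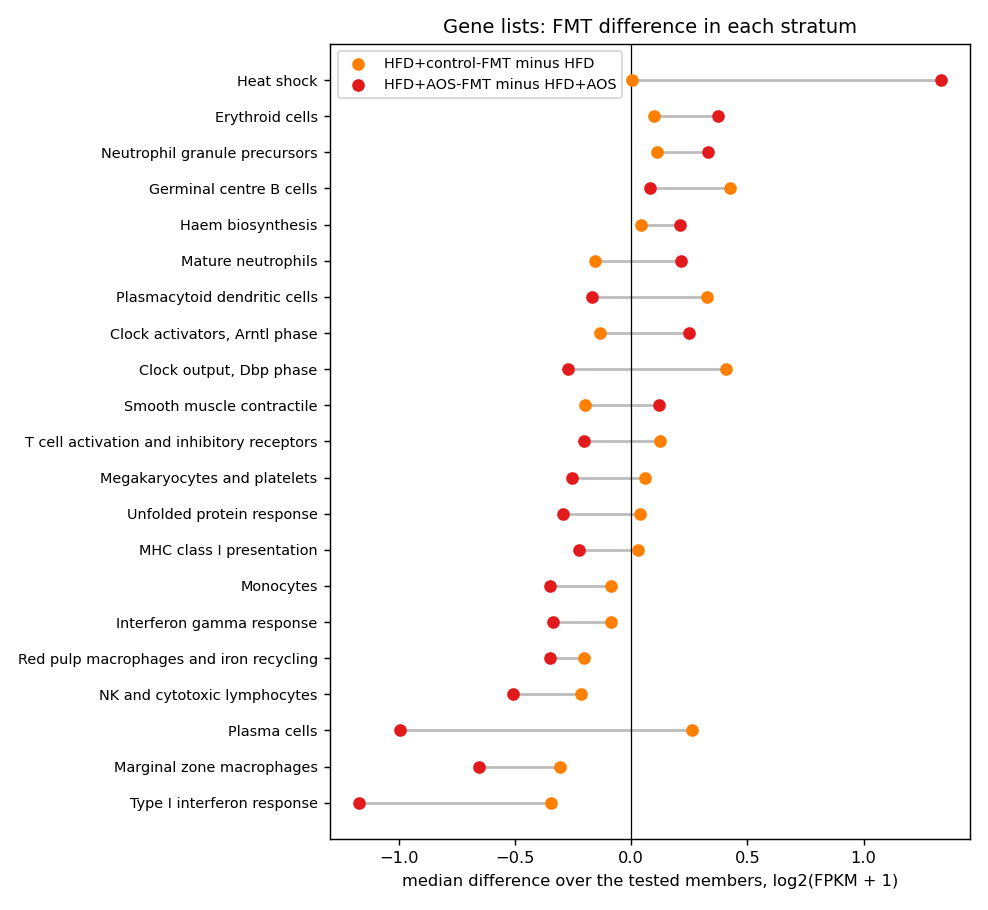
Median difference in log2(FPKM + 1) of gene lists in the stratum without AOS (HFD+control-FMT minus HFD) and with AOS (HFD+AOS-FMT minus HFD+AOS), for lists with a median of at least 0.2 in size in either. The type I interferon list is below 0 in both strata, the plasma cell list is at 0.26 and -0.99, and the heat shock list at 0.00 and 1.34.

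The interaction was clearest for genes of the circadian clock. Limma called 5 genes (0.0391%), all with a lower FMT effect in the stratum with AOS, and 1552 genes had an unadjusted p under 0.05. Dbp, a transcription factor under direct clock control, was at 7.36, 7.14 and 6.94 FPKM on HFD, 17.96, 21.4 and 16.3 FPKM on HFD+control-FMT, 12.5, 15.9 and 16.2 FPKM on HFD+AOS and 5.95, 4.68 and 7.12 FPKM on HFD+AOS-FMT. It rose by 1.26 (limma adjusted p = 0.013) with FMT in the stratum without AOS. In the stratum with AOS it fell by 1.21 (limma adjusted p = 0.003) with FMT. The interaction was -2.46 (SE 0.195, limma adjusted p = 0.000381). Nr1d1, the clock repressor REV-ERB alpha, followed the same pattern at 4.06, 4.45 and 3.04 FPKM on HFD, 10.0, 8.46 and 9.61 FPKM on HFD+control-FMT, 6.90, 8.48 and 9.72 FPKM on HFD+AOS and 2.73, 1.79 and 4.37 FPKM on HFD+AOS-FMT. In both genes the high pair of groups was HFD+control-FMT with HFD+AOS, and neither overlapped the low pair. The interaction of Nr1d1 was -2.39 (limma adjusted p = 0.019). With 1 library left out at a time, the interaction of Dbp passed in all 12 fits and that of Nr1d1 in 6. The rise of Dbp without AOS passed in 8 of 12.

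Of the 14 clock output genes, Dbp and Nr1d1 passed the interaction test, against 0.0391% of all genes tested. Including these, 12 of the 14 had an interaction below 0 and 2 above, with a median of -0.61. Per3, a period gene, and Nr1d2, the second REV-ERB, gave -1.08 and -0.94 and did not pass (limma adjusted p = 0.0936 for each). The 6 tested clock genes of the Arntl phase, which peak in the opposite phase, had a median of 0.28. They include Cry1, which is not an activator. Arntl, which encodes BMAL1, gave 0.49 (limma adjusted p = 0.206). These genes change over the day by nature, and the hour of tissue collection is not in the labels, so group and hour cannot be told apart. The remaining calls were Pgam2, the muscle form of a glycolytic mutase (-1.83), Tmsb15b1, a thymosin at no more than 2.53 FPKM (-1.63), and Gm46894 (-1.48). Gm46894 is a provisional symbol outside the naming rule. Tmsb15b1 averaged 2.28 FPKM on HFD+control-FMT and 0.247, 0.837 and 0.557 FPKM on HFD, HFD+AOS and HFD+AOS-FMT. It thus passed the 1 FPKM filter only through the group where it was high, and its calls add no support. With 1 library left out at a time, the interaction of Pgam2 passed in 4 of 12 fits and that of Tmsb15b1 in 2.

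**Figure D5:**
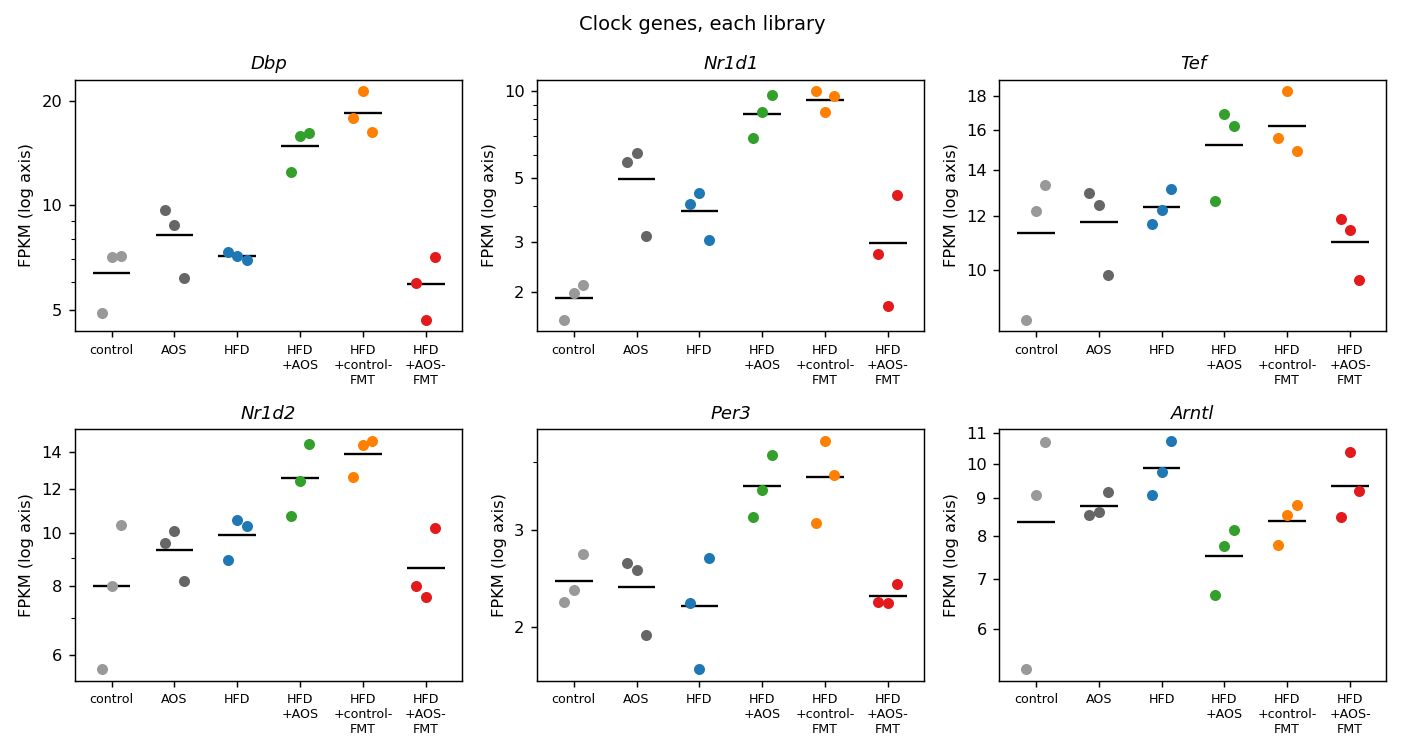
FPKM of 5 clock output genes and of Arntl in each library, 1 point per library, with a bar at the group mean. Dbp and Nr1d1 are low on HFD and HFD+AOS-FMT and high on HFD+AOS and HFD+control-FMT, with no overlap between these pairs.

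AOS exposure, averaged over the FMT groups, gave no gene past the threshold in limma, with 2207 genes at an unadjusted p under 0.05 and a lowest adjusted p of 0.102. Leaving out 1 library gave between 0 and 414 calls, with 414 without the first HFD library and 347 without the third HFD+AOS library.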

How the data were processed

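RNA of 18 spleen libraries was sequenced on Illumina instruments, and the authors deposited 1 table of normalized values per gene and library, aligned with Bowtie 0.12.2 to mm10 per the submitters' processing notes. The unit is not given in the sources used here. The deposited values were taken as FPKM because totals differ between libraries while sums of value times transcript length nearly agree. Counting program, read depth and filters are not given, so counting error is unknown. Of 19326 entries, 6 with duplicated symbols and 26 with symbols turned into dates, some of them both, were left out, leaving 19298. The 12781 genes whose average reached 1 FPKM in any of the 4 diet groups were fitted as log2(FPKM + 1) with limma 3.58.1 (R 4.3.3, trend and robust, Benjamini-Hochberg over all genes), 1 mean per group, 8 residual degrees of freedom. The code was tested on simulated data. The exact permutation test of the haemoglobin share exchanged FMT labels within AOS strata (400 arrangements). Genes are named as the 15 largest changes each way among calls (5 for strata and interaction), smallest p where few passed, and leading members of 62 lists. Further called genes were named by role after their values were seen. Comparison members and lists were chosen with earlier results of these data known. Alternatives covered pseudocount, filter, scaling, model, library weights, block and each library left out. Promoter windows are from RefSeq and gene positions from GENCODE vM21.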

Additional observations from a re-analysis of the deposited data

Results flagged for a closer look

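Samples standing apart were sought in 68 genes and lists on each side of the FMT comparison (136 sides of 6 libraries), by whether the gap of the end library to its neighbour exceeded Dixon's critical share of the range. This happened on 7 sides, and chance gives about 1 in 20. The first HFD+AOS library was far above the other libraries without FMT for Oasl2 (5.37), Dhx58 (4.52) and Oas1a (5.66), in log2(FPKM + 1). The first HFD library was far below them for Cd5l (3.67), a macrophage secreted protein. The first HFD+control-FMT library was far above the other FMT libraries for Klrb1f (1.88), an NK receptor, for the NK list mean (3.19) and for the plasma cell list mean (5.61).

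The FMT effect differed between the AOS strata, by limma's interaction test, for Dbp (-2.46), Nr1d1 (-2.39), Pgam2 (-1.83), Tmsb15b1 (-1.63) and Gm46894 (-1.48). Each effect was lower in the stratum with AOS. Tmsb15b1 averaged 1 FPKM or more only on HFD+control-FMT.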

How the results depend on the processing

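The 33 genes called for FMT became 20 with median-ratio scaling (2 higher, 18 lower), 20 with quantile normalization (3 higher, 17 lower), 87 without haemoglobin genes in the total (9 higher, 78 lower), 20 without trend and robust estimation, and 0 with all 18 libraries, with an additive model or with FMT alone. With AOS, the 183 calls became 114 with all 18 libraries. The 2 calls without AOS became 1 with a pseudocount of 0.1 and 1 at a minimum mean of 5 FPKM. The 5 interaction calls became 8 with no filter, 3 at the minimum of 5 FPKM, 8 with quantile normalization and 2 with all 18 libraries. The 0 calls for AOS exposure in limma became 2 with no filter. Library weights gave 3183, 4963, 453, 2870 and 4720 calls for FMT, FMT with AOS, FMT without AOS, the interaction and AOS exposure, but the estimation of the weights stopped before it converged. The 10 type I interferon genes lower with FMT became 0 with all 18 libraries, 0 with the additive model, 0 with FMT alone and 21 with weights. The 18 lower with AOS became 3 with all 18 libraries, and the 5 plasma cell genes became 3 with no filter and 13 with weights. Leaving out 1 library gave 4 to 60 calls for FMT: 4 without the first HFD+AOS-FMT or the second HFD+control-FMT library, 11 without the second HFD+AOS-FMT, 14 without the second HFD, 17 without the third HFD+AOS or HFD+control-FMT, 21 without the third HFD and 60 without the first HFD library. It gave 30 to 317 calls for FMT with AOS (30, 42 and 82 without each HFD+AOS-FMT library, 56 without the second HFD+AOS, 317 without the first HFD), 0 to 6 without AOS (0 without the first HFD or the first or second HFD+control-FMT, 1 and 4 without the second and the third HFD, 6 without the third HFD+control-FMT) and 1 to 10 for the interaction (10 and 1 without the first and second HFD+AOS, 1, 3 and 2 without each HFD+AOS-FMT, 2 and 1 without the first and second HFD+control-FMT). For AOS exposure it gave 0 to 414 (414 and 1 without the first and the third HFD, 347 without the third HFD+AOS, 3 without the second HFD+AOS-FMT). Members called in the type I interferon list then numbered 3 to 12 for FMT (6 without the third HFD, 5 without the third HFD+AOS, 3, 3 and 5 without each HFD+AOS-FMT, 3 and 4 without the second and the third HFD+control-FMT) and 7 to 18 with AOS (7 and 8 without the first and second HFD+AOS-FMT library), and in the plasma cell list 0 to 9. The median of the type I interferon list with AOS lay between -1.53 (without the third HFD+AOS library) and -1.003. With the replicate number as a block, 78 genes were called for FMT (18 higher, 60 lower), 308 with AOS, 4 without AOS and 13 for the interaction. The labels do not say that numbers pair libraries, and of 18 pairs of same-numbered libraries the correlation of deviations was -0.11 to 0.614, over 0.1 in 13. 9 of 12 libraries correlated best with their own number, a hint from the data only. Of 3008 values of 126 single-gene results, 2362 kept direction and side of the threshold, 543 lost the call, 103 gained one and 0 reversed; the fits with all 18 libraries, the additive model and FMT alone leave the FMT difference itself unchanged by construction. The additive and FMT-alone models give no value for the strata or the interaction. The cause of these shifts was not tested. Read depth is unknown, so genes near 1 FPKM cannot be given a counting error.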
